A study of Mus musculus with 3 samples.

Results

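The tRNA genes described here carry the names tRNA-Asn-GTT and tRNA-Tyr-GTA, after anticodons that read the asparagine and tyrosine codons. They were taken by gene name from the deposited tables of mouse epididymis small RNA. The rule found 14 of the 446 tRNA genes, of which 13 were Asn-GTT copies and 1 was a Tyr-GTA copy. The Tyr-GTA copy matches no RefSeq tRNA, and its values cannot be read as those of the cell's tyrosine tRNA. Both families were chosen by anticodon and with the read counts and length profiles of the comparison between Alkbh3-/- and wild type in view. Their levels and ratios are therefore given as a description with no test.

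In the tRNAs for asparagine and tyrosine the first anticodon base, the wobble base, is a guanosine that animal cells can exchange for queuosine. The exchange is made by the tRNA-guanine transglycosylase, an enzyme of the subunits QTRT1 and QTRT2, with queuine that comes from the diet and gut bacteria. The other tRNAs that take queuosine are those for aspartate and histidine, and queuosine is known to protect anticodons from cleavage in cultured cells. Cleavage of tRNAs near the anticodon gives long tRNA fragments, and these and shorter ones are abundant in the epididymis and in the sperm that mature there. The enzyme ALKBH3 takes methyl groups off adenosine and cytidine bases of RNA, including tRNA, and of single-stranded DNA. Queuosine and methylation were not measured in these libraries, which count reads by gene, length and end class.

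Small RNA of 15 to 50 nt was cut from a gel of total epididymis RNA and sequenced, in 2 libraries from Alkbh3-/- mice and 1 library from wild type mice. All mice were untreated. The labels give no age, strain, allele or way of disrupting Alkbh3, and do not say whether a library came from 1 animal or from pooled animals. The wild type column carries the prefix B6 and the Alkbh3-/- columns do not, so genotype and any difference of background cannot be told apart. Nothing links the Alkbh3-/- columns to the numbered samples, and the libraries are called A and B here. Nothing states that they came from separate mice, so the spread between them may be technical.

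Reads in the 5 counted RNA classes came to 15411457 in Alkbh3-/- library A, 21169908 in Alkbh3-/- library B and 15107055 in wild type. Levels below are RPM, reads divided by these sums and multiplied by 1e+06. The Alkbh3-/- libraries differed from each other by a chi-square of 266 per degree of freedom over 46 isoacceptors, the groups of genes that share an anticodon. The tables hold tRNA genes and class sums only, so neither Alkbh3 itself nor marker genes of the epididymis could be checked. With 1 library against 2, no exact permutation test can give a p below 0.33.

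The part of the Asn-GTT sequence that could be read from RefSeq promoter windows of neighbouring genes (GRCm38.p6, the assembly of mm10) is shown because the fragment lengths below refer to it. The first line is positions 1 to 47 of copy 3-1, at chr1:171033969-171034015 on the minus strand, with the GTT anticodon in capitals at positions 35 to 37. The second line is positions 41 to 74 of copy 3-8, at chr10:80249199-80249232 on the plus strand, which lie behind the anticodon. Both are written as DNA, and their shared positions 41 to 47 are identical at 7 of 7 bases.
Asn-GTT-3-1: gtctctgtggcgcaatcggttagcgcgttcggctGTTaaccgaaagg
Asn-GTT-3-8: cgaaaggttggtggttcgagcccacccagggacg
Counted on the 74 nt gene, a fragment of 28 or 29 nt from either end stops short of the anticodon. A fragment of 35 or 36 nt from the 5′ end runs into the anticodon, and one from the 3′ end starts behind it, with or without the added CCA. Fragments of 51 to 54 nt from either end span it. The deposited sheets do not say which tRNA end each of their 2 end classes stands for, so the classes are called first and second in column order.

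Asn-GTT fragments were scarcer in both Alkbh3-/- libraries than in wild type. The gene table held 702 reads in Alkbh3-/- A and 1374 in Alkbh3-/- B, against 3167 in wild type. As levels, these were 45.6 and 64.9 RPM in Alkbh3-/- libraries, against 209.6 RPM in wild type. The log2 ratios to wild type were −2.20 in A and −1.69 in B, with a mean of −1.95 ± 0.36 (SD, n = 2), so wild type held 4.60 and 3.23 times as much. Both Alkbh3-/- libraries sat below wild type, and they lay closer to each other than either lay to wild type. Fewer cells that make these fragments and less of them per cell cannot be told apart in such bulk samples.

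A minimum of 10 reads over all libraries left 46 isoacceptors, of which 52.2% were lower in both Alkbh3-/- libraries, so a low value in both was common. Their median log2 ratio was −0.31, against −0.04 with the tRNA reads as library size. Relative to the median Asn-GTT stood at −1.64 and was the lowest of the 46. Among all 56 isoacceptors by level, Asn-GTT ranked 24 and 23 in Alkbh3-/- A and B and 13 in wild type. Tyr-GTA was a rare species in every library, at rank 44 in Alkbh3-/- A, 42 in Alkbh3-/- B and 41 in wild type.

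The 13 Asn-GTT copies are all 74 nt long, and 12 of them match a RefSeq tRNA gene at the same mm10 position, the exception being copy 5-1. Of the copies, 7 lie on chromosome 3 between 96322074 and 96497854, a stretch of 175.8 kb that also holds 5 His-GTG copies with reads. The others lie singly on chromosomes 1, 2, 5, 10, 11 and 15. Copy 3-8 overlaps the mitochondrial complex I gene Ndufs7 on the same strand, with its first 46 bases in an annotated exon. Copy 3-4 lies inside BC107364 outside its exons, and copy 3-5 inside the lincRNA gene Gm10685, both on the strand opposite to the tRNA. In the naming of tRNA genes, copies with the same middle number share 1 mature sequence, so reads of copies 3-1 to 3-9 cannot be told apart by sequence within the tRNA.

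Of the 13 copies, 11 had 10 or more reads, and all 11 were lower in both Alkbh3-/- libraries, beside 47.4% of the 367 tRNA genes with such counts. Log2 ratios over these copies ran between −3.01 and −1.46 in A, with a median of −1.90, and between −2.67 and −0.96 in B, with a median of −1.34. The other 2 copies could not be read for a direction. Copy 4-1 had 1 and 6 reads in Alkbh3-/- A and B and 2 in wild type, and copy 5-1 had 0 and 0 reads in Alkbh3-/- libraries and 1 in wild type.

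The copy with the most reads was Asn-GTT-3-2, on chromosome 2 at 18587044 to 18587117, minus strand. It had 143 and 250 reads in Alkbh3-/- A and B, against 1133 in wild type, which is 9.28 and 11.8 RPM against 75.0 RPM. Its log2 ratios, −3.01 and −2.67, were the lowest of the 11 copies in both libraries. It made up 20.4% and 18.2% of the family's gene reads in Alkbh3-/- libraries and 35.8% in wild type.

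The next copies by reads sat closer together. Asn-GTT-3-7 (chromosome 5, 149229001 to 149229074, minus strand) had 5.65 and 8.60 RPM in Alkbh3-/- A and B, against 17.1 RPM in wild type. Asn-GTT-3-6 (chromosome 3, 96497781 to 96497854, plus strand) had 4.02 and 6.05 RPM in Alkbh3-/- A and B, against 20.9 RPM in wild type. In both copies each Alkbh3-/- library was below wild type, with log2 ratios of −1.60 and −0.99 for 3-7 and of −2.37 and −1.79 for 3-6. Asn-GTT-3-5 (chromosome 3, 96459138 to 96459211, minus strand) had 4.48 and 5.38 RPM in Alkbh3-/- A and B, against 17.4 RPM in wild type, with log2 ratios of −1.96 and −1.69. Asn-GTT-3-1 (chromosome 1, 171033942 to 171034015, minus strand) had 3.89 and 5.72 RPM in Alkbh3-/- A and B, against 14.5 RPM in wild type, with log2 ratios of −1.90 and −1.34. Apart from 3-2, the copies with 10 or more reads held 108 to 315 wild type gene reads each.

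**Figure D1:**
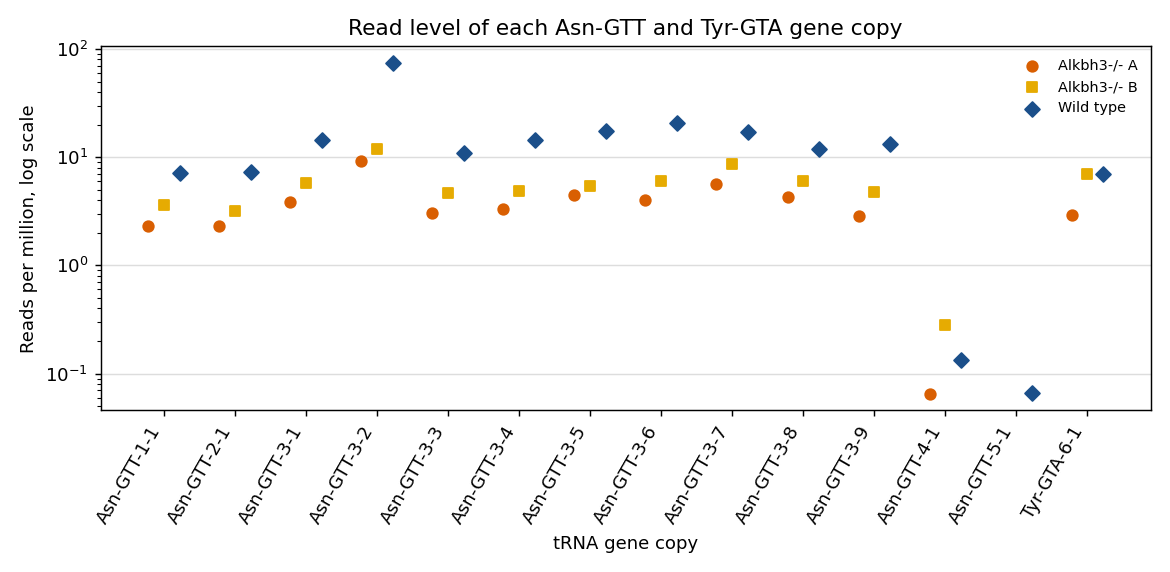
Level of each Asn-GTT and Tyr-GTA gene copy in RPM on a log axis, with 1 point per library and no error bars (Alkbh3-/- A circles, Alkbh3-/- B squares, wild type diamonds). Both Alkbh3-/- points lie below the wild type point in 11 Asn-GTT copies, most of all in 3-2, while Tyr-GTA in library B meets wild type, and libraries without reads of a copy have no point.

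The height of copy 3-2 was a feature of the gene table and not of the sheets that list fragments by length. There copy 3-2 had 45 and 92 reads in Alkbh3-/- A and B and 138 in wild type, which is within the 68 to 179 wild type reads of the other copies. Its gene reads per fragment read were 3.18 and 2.72 in Alkbh3-/- A and B and 8.21 in wild type. In the other 10 copies this ratio stayed between 0.870 and 1.98 in A, between 0.817 and 1.43 in B and between 0.916 and 2.02 in wild type. How reads that match several copies were assigned is not stated, and its part in the height of 3-2 was not tested.

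For the whole family the gene table held 210 reads more than the fragment sheets in Alkbh3-/- A, 209 more in Alkbh3-/- B and 1641 more in wild type. In most isoacceptors it held fewer, and the median ratio over 40 isoacceptors was 0.640 and 0.645 in Alkbh3-/- A and B and 0.676 in wild type. The ratio of Asn-GTT was 1.43 and 1.18 in Alkbh3-/- A and B and 2.08 in wild type. The fragment sheets gave 492 and 1165 Asn-GTT reads in Alkbh3-/- A and B, against 1526 in wild type, or 31.9 and 55.03 RPM against 101.0 RPM. The log2 ratios were then −1.66 and −0.88. Asn-GTT was thus lower in both Alkbh3-/- libraries by either source, but the size of the difference depended on the table.

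Within the fragment sheets, most of the difference in Asn-GTT reads lay at 35 to 36 nt. This does not hold for the larger difference in the gene table. Its excess over the sheets came to 13.6 and 9.87 RPM in Alkbh3-/- A and B and 108.6 RPM in wild type, with lengths not known. A fragment is here an isoacceptor, length and end class, and Asn-GTT had 52 of them between 17 and 64 nt. Its fragments in the second class peaked at 28 to 29 nt and at 35 to 36 nt, and those in the first class at 51 to 54 nt. The last of these lie past the upper edge of the excised range. The length groups were chosen after these profiles were seen.

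**Figure D2:**
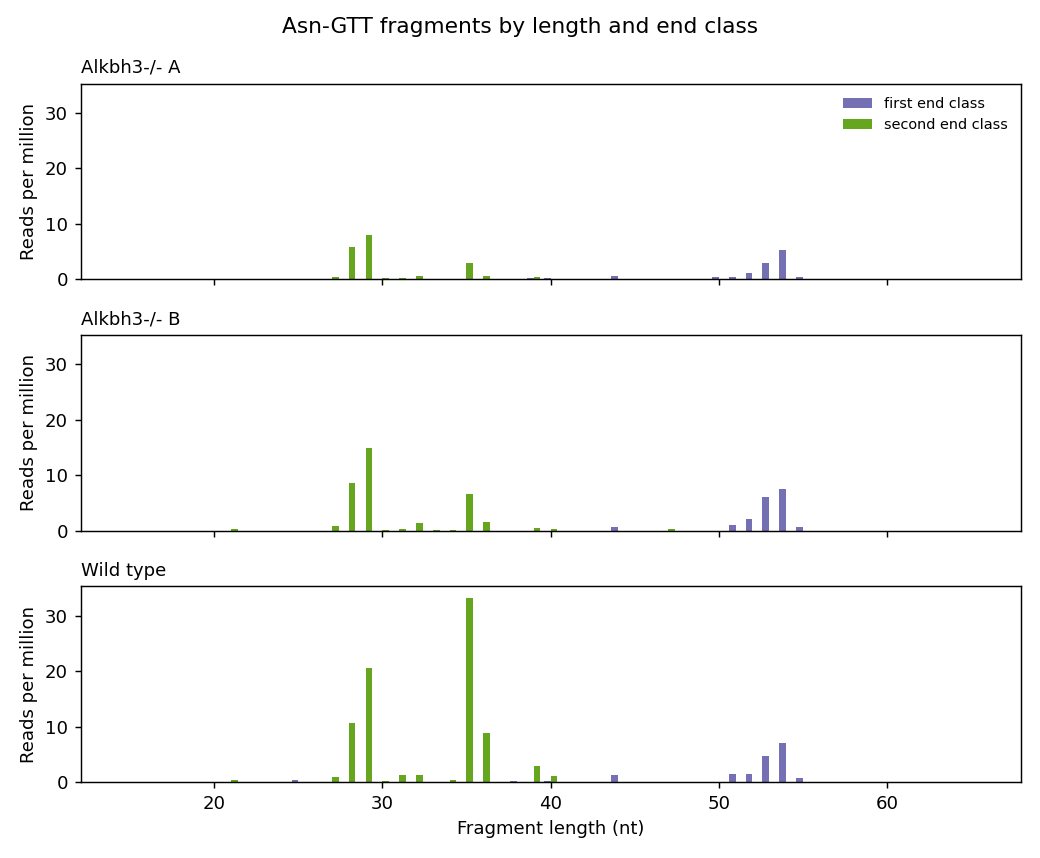
Asn-GTT fragments by length in nt (horizontal axis) and level in RPM (vertical axis, same scale in each panel) for Alkbh3-/- A, Alkbh3-/- B and wild type, with 1 bar per length and end class and no error bars. The 35 nt bar is the tallest in wild type at 33.3 RPM and only 2.98 and 6.71 RPM in the Alkbh3-/- libraries, where the 29 nt bar is the tallest, while the 54 nt bars stand at 5.26 and 7.56 RPM in the Alkbh3-/- libraries and 7.02 RPM in wild type.

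The 35 nt fragment of the second class had 46 and 142 reads in Alkbh3-/- A and B, against 503 in wild type. As levels, these were 2.98 and 6.71 RPM against 33.3 RPM, with log2 ratios of −3.48 and −2.31 and a mean of −2.90 ± 0.83 (SD, n = 2). It was the most abundant Asn-GTT fragment in wild type and not in either Alkbh3-/- library. The 36 nt fragment of the same class had 9 and 34 reads in Alkbh3-/- A and B, against 134 in wild type, with log2 ratios of −3.92 and −2.47. The 39 nt fragment of that class, outside the naming rule and added after its values were seen, had 6 and 10 reads in Alkbh3-/- A and B, against 43 in wild type.

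The fragments of 28 and 29 nt in the second class differed less. The 29 nt fragment had 122 and 317 reads in Alkbh3-/- A and B, against 310 in wild type, or 7.92 and 15.0 RPM against 20.5 RPM. The 28 nt fragment had 89 and 182 reads in Alkbh3-/- A and B, against 162 in wild type, or 5.77 and 8.60 RPM against 10.7 RPM. Both were lower in each Alkbh3-/- library, with log2 ratios of −1.37 and −0.45 at 29 nt and of −0.89 and −0.32 at 28 nt. Not every shorter fragment of that class differed less. The sparse 31 nt fragment had 3 and 6 reads in Alkbh3-/- A and B, against 21 in wild type. Its log2 ratios were −2.84 and −2.29.

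The long fragments of the first class had no common direction. The 54 nt fragment had 81 and 160 reads in Alkbh3-/- A and B, against 106 in wild type, or 5.26 and 7.56 RPM against 7.02 RPM. The 53 nt fragment had 2.92 and 6.09 RPM in Alkbh3-/- A and B, against 4.77 RPM in wild type. The 52 nt fragment had 1.23 and 2.17 RPM in Alkbh3-/- A and B, against 1.52 RPM in wild type. In all 3 the wild type value lay between the Alkbh3-/- libraries, so the difference between genotypes was smaller than that between the libraries of 1 genotype.

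Of the 52 Asn-GTT fragments, 6 had 10 or more reads in each library, and 3 of these were lower in both Alkbh3-/- libraries, namely those of 28, 29 and 35 nt. Among all 572 fragments with such counts, 42.0% were lower in both, so the count itself is near the background. Relative to the median of the 572, which was −0.09 with the class sums and 0.20 with the fragment sums as library size, the 35 nt fragment's mean log2 ratio was −2.81, the second lowest of all. That of the 54 nt fragment was −0.07 relative to the same median.

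Within Asn-GTT the composition by length differed accordingly. Fragments of 35 to 36 nt in the second class made up 11.2% of the family's fragment reads in Alkbh3-/- A (95% Clopper-Pearson interval 8.53 to 14.3), 15.1% in Alkbh3-/- B (13.1 to 17.3) and 41.7% in wild type (39.3 to 44.3). Fragments of 28 to 29 nt in that class made up 42.9% in Alkbh3-/- A (38.5 to 47.4), 42.8% in Alkbh3-/- B (39.97 to 45.7) and 30.9% in wild type (28.6 to 33.3). Fragments of 51 to 54 nt in the first class made up 30.7% in Alkbh3-/- A (26.6 to 34.98), 30.7% in Alkbh3-/- B (28.1 to 33.5) and 14.7% in wild type (12.9 to 16.6). These intervals cover counting error only, since PCR reads are not independent molecules, and they do not measure the spread between mice.

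Shares add to a whole, so levels are needed beside them. The 35 to 36 nt group stood at 3.57 and 8.31 RPM in Alkbh3-/- A and B, against 42.2 RPM in wild type. The 28 to 29 nt group stood at 13.7 and 23.6 RPM in Alkbh3-/- A and B, against 31.2 RPM in wild type. The 51 to 54 nt group stood at 9.80 and 16.9 RPM in Alkbh3-/- A and B, against 14.8 RPM in wild type. The higher shares of 28 to 29 nt in Alkbh3-/- thus went with lower levels, and those of 51 to 54 nt with levels on both sides of wild type. Reads of 35 to 36 nt per read of 28 to 29 nt were 0.261 and 0.353 in Alkbh3-/- A and B, against 1.35 in wild type.

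The end classes differed in the same way. All first-class fragments together held 12.4 and 18.8 RPM in Alkbh3-/- A and B, against 18.9 RPM in wild type, with log2 ratios of −0.61 and −0.01. All second-class fragments held 19.5 and 36.2 RPM in Alkbh3-/- A and B, against 82.1 RPM in wild type, with log2 ratios of −2.07 and −1.18. The second class made up 61.2% of Asn-GTT reads in Alkbh3-/- A (56.7 to 65.5), 65.8% in Alkbh3-/- B (63.0 to 68.6) and 81.3% in wild type (79.2 to 83.2). This class is a minor one in most tRNAs: its median share over the 40 isoacceptors with at least 100 fragment reads per library was 4.67% and 5.39% in Alkbh3-/- A and B and 5.46% in wild type. Asn-GTT ranked 9 and 7 of 40 by this share in Alkbh3-/- A and B and 5 in wild type.

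The copies of the most common sequence carried most of the 35 to 36 nt fragments. In copies 3-1 to 3-9 these had 52 and 170 reads in Alkbh3-/- A and B, against 616 in wild type, which is 12.6% and 17.2% of their fragment reads against 44.5%. In single copies they made up 8% to 16.4% of the copy's fragment reads in Alkbh3-/- A, 12.04% to 22.9% in Alkbh3-/- B and 39.9% to 48.4% in wild type, so the Alkbh3-/- ranges overlapped each other. The 9 copies cannot stand as replicates, since they share a sequence and may share reads.

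The copies 1-1 and 2-1, whose numbers mark sequences of their own, had few fragments of this length and differed from each other in their share. Together they held 3 and 4 reads of 35 to 36 nt in Alkbh3-/- A and B, against 20 in wild type, or 4% and 2.42% of their reads against 14.6%. Of the wild type reads 18 came from copy 1-1, 26.5% of its 68 fragment reads, and 2 from copy 2-1, 2.90% of its 69. In copy 1-1 the share was 8.33% and 4.49% in Alkbh3-/- A and B. Copy 2-1 had 0 of 39 and 0 of 76 reads in Alkbh3-/- A and B, for which a bound of 3 reads allows shares of up to 7.69% and 3.95%. The 28 to 29 nt fragments of these 2 copies made up 34.7% and 47.3% in Alkbh3-/- A and B and 50.4% in wild type, so their share was not higher in Alkbh3-/- as it was in copies 3-1 to 3-9, at 44.7% and 42.05% against 29.05%. Their 51 to 54 nt share was 40.0% and 41.8% in Alkbh3-/- A and B and 21.9% in wild type.

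Per copy, the direction of each length group can be set beside that of all tRNA genes with 10 or more such reads over the libraries, the Asn-GTT copies included. The 35 to 36 nt level was lower in both Alkbh3-/- libraries in 10 of 10 such Asn-GTT copies, beside 50.5% of 99 genes. Of these copies, 1-1 had 3 and 4 such reads in Alkbh3-/- A and B and 18 in wild type. It passed the minimum only through wild type, so its direction is not independent of that minimum. The 28 to 29 nt level was lower in both in 11 of 11 copies, beside 70.8% of 24 genes, so these copies made up much of that background. With fragment sums as library size, the 28 to 29 nt count was 9 of 11. The 51 to 54 nt level was lower in both in 6 of 11 copies, higher in both in 1 copy, which was 1-1, and split in 4, beside 48.0% of 148 genes lower in both. With fragment sums as library size it was lower in both in 2 copies, higher in both in 3 and split in 6. The copies may share reads, so these counts are not counts of independent values.

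**Figure D3:**
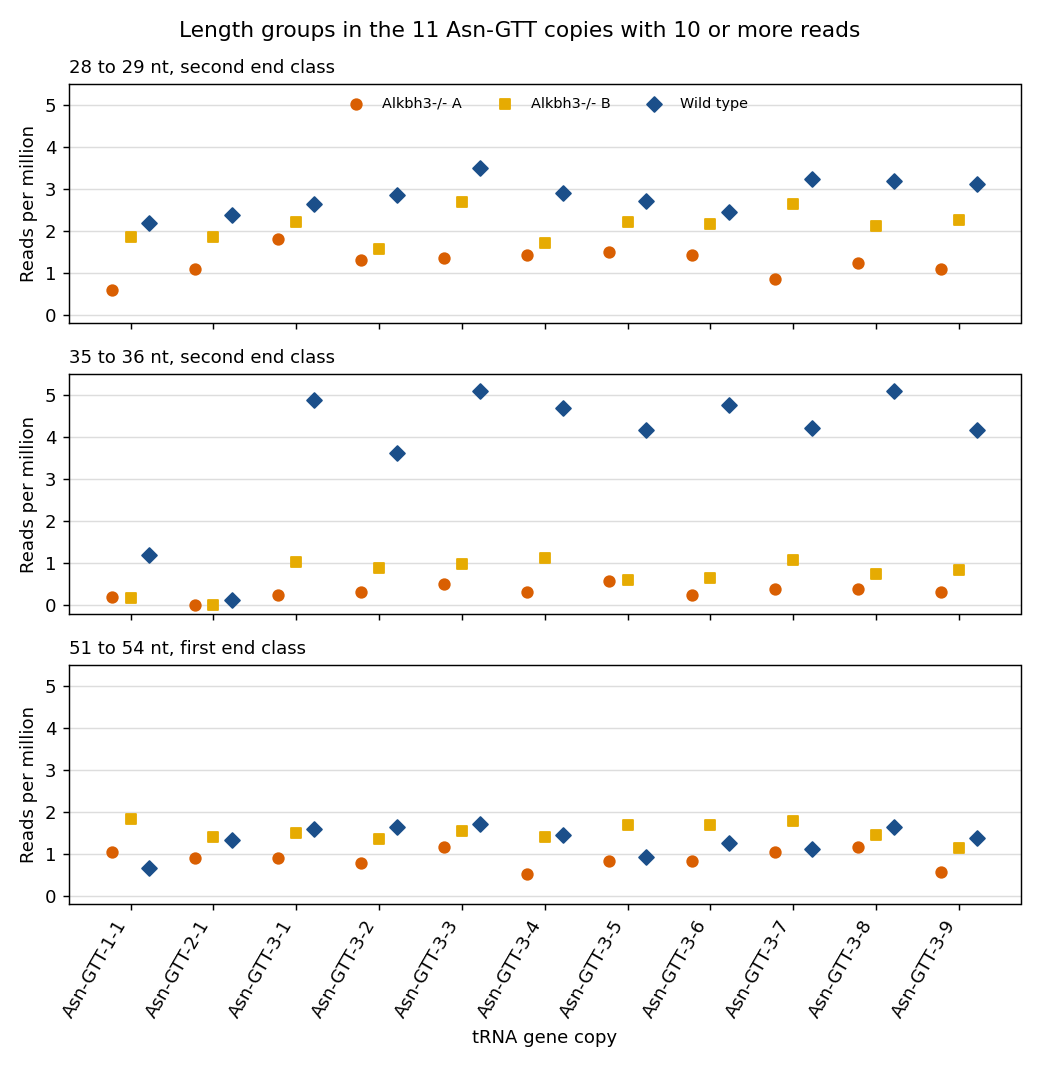
Level in RPM of 3 length groups (panels, same scale) in each of the 11 Asn-GTT copies with 10 or more reads, with 1 point per library and no error bars (Alkbh3-/- A circles, Alkbh3-/- B squares, wild type diamonds). Wild type stands far above both Alkbh3-/- libraries at 35 to 36 nt in copies 3-1 to 3-9, by less at 28 to 29 nt, and mixes with them at 51 to 54 nt.

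Tyr-GTA was represented by a single gene, Tyr-GTA-6-1, which lies on chromosome 2 at 22589649 to 22589715, plus strand, in an intron of the myosin gene Myo3a on the same strand. It is 67 nt long and matches no RefSeq tRNA, while RefSeq lists 10 tyrosine GTA genes of 86 to 93 nt in mouse, none of them at a position in the deposited sheets. These longer genes, which include the intron that tyrosine tRNA genes carry, were not analysed here. The values below therefore belong to this 1 locus and cannot be read as the cell's tyrosine tRNA.

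Tyr-GTA-6-1 had 45 and 149 gene reads in Alkbh3-/- A and B, against 106 in wild type. As levels, these were 2.92 and 7.04 RPM against 7.02 RPM, with log2 ratios of −1.26 and 0.00. Library A was below wild type and library B level with it, so the mean of −0.63 ± 0.90 (SD, n = 2) was smaller than its spread. The fragment sheets gave 58 and 180 reads in Alkbh3-/- A and B, against 123 in wild type, with log2 ratios of −1.11 and 0.06. Here the gene table held fewer reads than the sheets in every library, unlike in Asn-GTT.

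Its 36 fragments spanned 17 to 63 nt, and only that of 30 nt in the first class had 10 or more reads in each library. It had 18 and 31 reads in Alkbh3-/- A and B, against 23 in wild type, or 1.17 and 1.46 RPM against 1.52 RPM. The 31 nt fragment had 9 and 28 first-class reads in Alkbh3-/- A and B, against 20 in wild type. Its second-class reads were 9 and 24 in Alkbh3-/- A and B, against 26 in wild type. Fragments of 30 to 31 nt were the main product in every library, at 62.1% of the reads in Alkbh3-/- A (48.4 to 74.5), 49.4% in Alkbh3-/- B (41.9 to 57.0) and 57.7% in wild type (48.5 to 66.6).

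Shorter and longer Tyr-GTA fragments were sparse. The 23 nt fragment of the second class had 3 and 24 reads in Alkbh3-/- A and B, against 11 in wild type. The 24 nt fragment of that class had 3 and 8 reads in Alkbh3-/- A and B, against 5 in wild type. The 50 nt fragment of the first class had 2 and 12 reads in Alkbh3-/- A and B, against 9 in wild type. In each, library A was below wild type, and library B was above it at 23 and 24 nt and just below it at 50 nt. No library had a second-class read of 35 to 36 nt, the Asn-GTT length, which allows shares of up to 5.17% and 1.67% in Alkbh3-/- A and B and 2.44% in wild type. The second class as a whole made up 32.8% and 46.1% in Alkbh3-/- A and B and 43.1% in wild type.

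**Figure D4:**
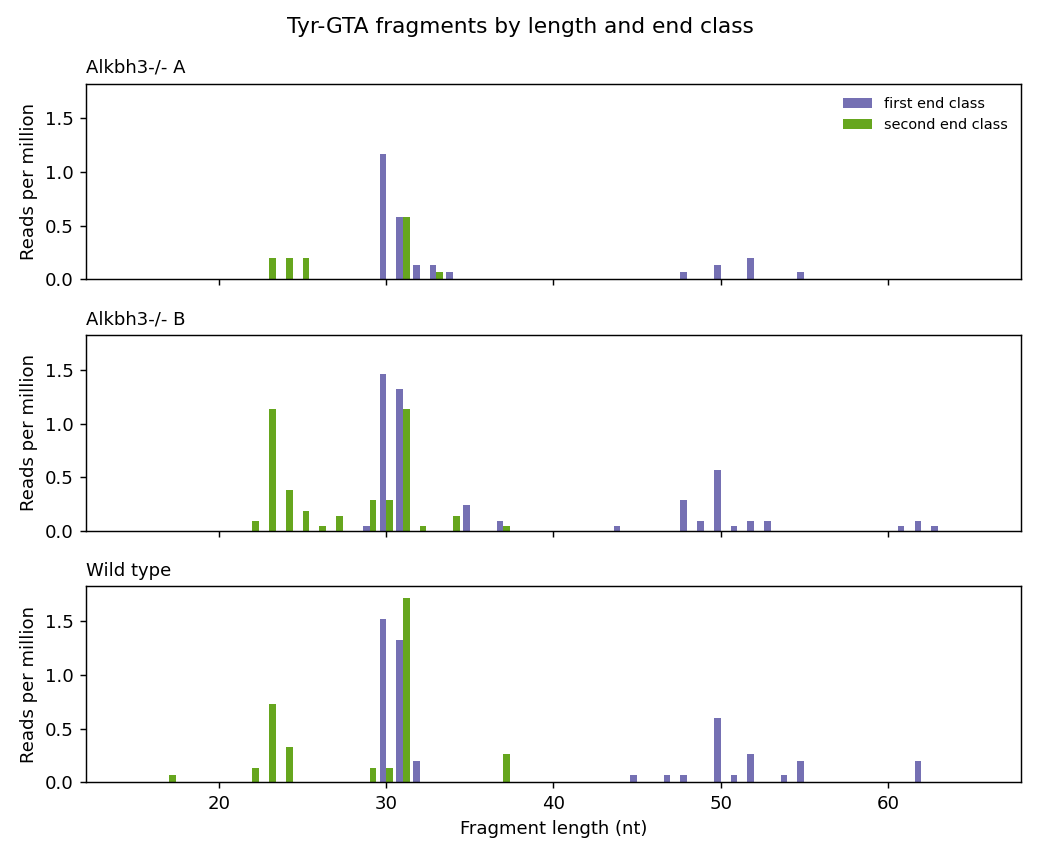
Tyr-GTA fragments by length in nt (horizontal axis) and level in RPM (vertical axis, same scale in each panel) for Alkbh3-/- A, Alkbh3-/- B and wild type, with 1 bar per length and end class and no error bars. The tallest bar in each panel is at 30 or 31 nt. The 30 nt bar of the first class stands at 1.17 and 1.46 RPM in Alkbh3-/- A and B and 1.52 RPM in wild type. In Alkbh3-/- B the 23 nt bar of the second class, at 1.13 RPM, is level with the 31 nt bar of that class. Most other lengths hold a few reads.

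The other tRNAs that take queuosine gave no call. His-GTG had 3629 and 2709 RPM in Alkbh3-/- A and B, against 4957 RPM in wild type, with an edgeR log2 fold change of −0.68 (SE 0.53, adjusted p = 0.460). Asp-GTC had 865 and 980 RPM in Alkbh3-/- A and B, against 983 RPM in wild type, with an edgeR log2 fold change of −0.077 (SE 0.74, adjusted p = 0.959). Of these 2 isoacceptors 0 were called higher and 0 lower, beside 23.9% of 46 called by edgeR's quasi-likelihood test at an adjusted p of 0.05, 3 higher and 8 lower. Neither missed call shows that they were equal in both genotypes. The median edgeR log2 fold change over these 2 was −0.38, and over all 46 isoacceptors −0.26. Of the 4 tRNAs listed as having intron-bearing genes, Arg-TCT and Ile-TAT had 1 read each over the 3 libraries. Leu-CAA was not analysed here, and only Tyr-GTA had enough reads. Those reads came from Tyr-GTA-6-1, which matches none of the longer RefSeq tyrosine genes. They cannot be read as those of an intron-bearing gene.

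The second-class fragments of 35 to 36 nt can be set beside those of the other queuosine tRNAs. Asp-GTC had 2378 and 2584 such reads in Alkbh3-/- A and B, against 2403 in wild type, with log2 ratios of −0.04 and −0.38. They made up 16.6% and 11.8% of its reads in Alkbh3-/- A and B and 15.0% in wild type. His-GTG had 0 such reads in each library, which allows shares of up to 0.0121% and 0.0114% in Alkbh3-/- A and B and 0.00759% in wild type. Among 12 isoacceptors with 20 or more of these reads in each library, 8 were lower in both Alkbh3-/- libraries, and the median of the mean log2 ratios was −0.40. Asn-GTT was the lowest at −2.95, followed by Thr-AGT with log2 ratios of −2.22 and −1.62.

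Thr-AGT was also nearest to Asn-GTT in whole-isoacceptor log2 ratios, among 44 isoacceptors with a mean of 50 or more reads. The ratios of Thr-AGT were −1.34 and −1.24, at a Euclidean distance of 0.974, and Arg-TCG and Val-TAC followed at 1.47 and 1.58. Nearest to Tyr-GTA were Gly-TCC, Gly-ACC and Val-CAC, at 0.552, 0.567 and 0.666. In the make-up by length and end class, measured over 41 isoacceptors as the summed absolute difference of shares divided by its maximum, Asn-GTT was nearest to Met-CAT, Arg-CCT and Arg-TCG, at 0.661, 0.720 and 0.796. Tyr-GTA was nearest to Gly-GCC, His-GTG and Gly-CCC, at 0.551, 0.562 and 0.577. A value of 1 would mean no shared length and class, so even the nearest profiles differed widely from both families.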

How the data were processed

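Total RNA (100 µg) was run on a 15% gel and the 15 to 50 nt range was cut out, and a small RNA kit was used on it, per the labels. The authors deposited raw read counts of 5 RNA classes and of 446 tRNA genes, and a sheet per library with reads by gene, length and end class. These sheets also hold other values per length, deposited as text lists. The submitters' processing notes name cutadapt, an adapter trimmer, and the build mm10. Aligner, counter, tRNA annotation and the handling of reads with several matches: not given in the sources used here. No use was made of 6 sheet columns that hold totals per end class.

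Reads were divided by the sum of the 5 classes. Isoacceptors with at least 10 reads in all were tested on the whole table with edgeR 4.0.16 (quasi-likelihood, Benjamini-Hochberg adjustment) in R 4.3.3. The fit had 1 residual degree of freedom, its spread came from the Alkbh3-/- libraries, and wild type was assumed to vary as they did. edgeR's prior degrees of freedom came out infinite. The SE and p of an isoacceptor thus rest on a spread shared across isoacceptors and not on its own spread. SE is the fitted log2 fold change over the root of F. Gene context came from GENCODE M21 and sequences from RefSeq, read with Python 3.11.15, pandas 2.3.3, scipy 1.17.1 and matplotlib 3.10.9. A share with 0 reads was bounded with 3 reads in copy 2-1 and by the upper end of the Clopper-Pearson interval elsewhere. The members and lists were chosen with earlier results of these data known. Values per library are given for the 5 Asn-GTT copies with the most reads, every Tyr-GTA copy, the 6 fragments of each family with the most reads, the 3 highest and 3 lowest by ratio, and the 3 most alike isoacceptors. The test was tried on simulated data in which every isoacceptor or fragment had the same spread, so that trial cannot show whether the calls made here hold. Alternatives were TMM scaling, other library sizes, DESeq2 1.42.0, no filter, the fragment sheets, other copy sets, summed end classes and each Alkbh3-/- library left out. Those added after seeing the data were wider length groups, copy groups by sequence, summed length groups and edgeR's older method.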

Additional observations from a re-analysis of the deposited data

How the results depend on the processing

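No paired analysis was possible because the wild type group has 1 library. The Asn-GTT log2 ratio of −1.95 was −1.27 from the fragment sheets, and between −1.78 and −1.62 with TMM scaling, tRNA sums, DESeq2 size factors, without copy 3-2 or as the median over copies; leaving out each Alkbh3-/- library gave −2.20 to −1.69. The Tyr-GTA ratio of −0.63 was the same without a count filter, lay between −0.53 and −0.31 with TMM scaling, tRNA sums, DESeq2 size factors or the fragment sheets, and between −1.26 and 0.00 with each library left out, so library A carried it. The isoacceptor calls numbered 11, against 3 with DESeq2 and 5 with edgeR's older method, and 9 to 11 otherwise. The Asp-GTC log2 fold change of −0.077 turned to 0.082 with TMM scaling, 0.18 with tRNA sums and 0.23 with DESeq2. The Asn-GTT 35 nt log2 ratio of −2.90 (−3.48 to −2.31 with each library left out) was −1.63 when the family's own fragment reads served as library size, which removes the change of the family by construction, and −2.95 with 35 and 36 nt summed. The 35 to 36 nt share, Alkbh3-/- minus wild type, was −28.6 percentage points (−30.6 to −26.6 with each library left out) and −11.4 in copies 1-1 and 2-1 alone. The 28 to 29 nt share difference of 11.9 points was 12.2 without copy 3-2, 12.6 as the median over copies, 12.8 with wider length groups, 14.3 in copies 3-1 to 3-9 alone and −9.40 in copies 1-1 and 2-1 alone. The 51 to 54 nt share difference of 16.0 points was 16.5, 14.0, 17.1, 15.3 and 19.0 in those settings in turn. The cause of these shifts was not tested. Depth limited Tyr-GTA most, with 58 to 180 fragment reads per library, and copies 1-1 and 2-1, with 75 to 165 together.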
